A study of Mus musculus with 4 samples.

Results

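Neutrophil granule genes were followed through 4 libraries of mouse macrophages. The set held 10 genes, Mpo, Elane, Prtn3, Ctsg, Ngp, Ltf, Camp, Mmp8, Retnlg and Ly6g, of 55536 annotated genes. They were selected on their measured levels in these same libraries, where granule transcripts were seen in cells labelled as macrophages, so their levels and their differences between libraries are given as a description. A test across all genes is quoted only to give the background, and it supports nothing about these 10. All 10 symbols were found in both deposited quantifications. Polyadenylated RNA came from primary C57BL/6J macrophages grown from bone marrow and exposed for 60 minutes to 100 ng/mL of a stimulus. There is 1 group of 4 libraries, labelled biological replicates 1, 2, 3 and 4, each a single technical replicate with the same donor label. No label gives them separate animals or cultures of origin, so the spread between them may be technical. The stimulus is named as lipid A in one label and as lipoprotein A in others, no unstimulated cells were analysed here, and no value below measures a response to it. Age and sex of the animals are not given by the labels.

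Granules are the storage organelles of neutrophils, and their proteins are made in sequence while the cell matures in the bone marrow. Azurophil granules form first, at the promyelocyte stage, and hold myeloperoxidase and the serine proteases. Specific granules follow at the myelocyte stage and hold lactoferrin and the cathelicidin, and gelatinase granules and surface antigens come later. The transcripts of azurophil and specific granule proteins decline before the neutrophil leaves the marrow, while the proteins stay stored. Transcription factors of the C/EBP family and the ETS factor PU.1 are known to act at many of these genes. Macrophages belong to the same myeloid branch, carry PU.1 and C/EBP factors as well, and are grown from marrow, which also holds neutrophil precursors.

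The genes lie on chromosomes 9, 10, 11, 14, 15 and 16 of mm10 (GENCODE M21), and 4 of the 10 lie on chromosome 9. Camp, Ngp and Ltf follow each other there, with 570 kb between Camp and Ngp and 596 kb between Ngp and Ltf. Prtn3 and Elane are 3.07 kb apart on chromosome 10. The upstream sequences of 5 genes are shown because they hold the letters that were searched. They are also the most abundant of the azurophil genes, of the specific granule genes and of the remaining genes. They come from the RefSeq promoter table (GRCm38.p6) and run from 250 bases before the RefSeq start towards it, ending before any GENCODE transcript start of that gene inside the window. The Prtn3 stretch lies within the annotated gene, since other Prtn3 transcripts start further upstream. All 5 are read on the plus strand. Ngp is taken from chr9:110419558-110419746, Ltf from chr9:111019042-111019270, Elane from chr10:79886062-79886246, Prtn3 from chr10:79879417-79879613 and Mmp8 from chr9:7558179-7558428. Capitals mark matches on either strand to TTGCNNAA, a form of the C/EBP site, or to GAGGAA, an ETS core with its flank, which reads TTCCTC on the other strand.

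Ngp: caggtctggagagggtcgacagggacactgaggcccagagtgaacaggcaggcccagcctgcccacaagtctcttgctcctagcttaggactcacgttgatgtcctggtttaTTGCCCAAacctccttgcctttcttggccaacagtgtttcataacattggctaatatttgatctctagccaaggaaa

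Ltf: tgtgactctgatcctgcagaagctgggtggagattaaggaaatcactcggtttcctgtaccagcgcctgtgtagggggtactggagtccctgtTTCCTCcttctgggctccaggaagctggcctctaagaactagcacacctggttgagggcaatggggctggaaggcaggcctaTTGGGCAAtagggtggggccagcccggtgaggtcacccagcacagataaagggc

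Elane: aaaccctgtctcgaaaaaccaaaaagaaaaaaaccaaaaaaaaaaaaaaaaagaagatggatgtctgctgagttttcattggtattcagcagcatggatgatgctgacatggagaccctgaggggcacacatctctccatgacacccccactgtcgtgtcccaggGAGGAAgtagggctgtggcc

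Prtn3: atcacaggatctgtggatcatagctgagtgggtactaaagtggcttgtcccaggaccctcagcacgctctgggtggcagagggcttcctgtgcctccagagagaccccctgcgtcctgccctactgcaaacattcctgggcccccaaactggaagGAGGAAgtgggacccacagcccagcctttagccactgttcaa

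Mmp8: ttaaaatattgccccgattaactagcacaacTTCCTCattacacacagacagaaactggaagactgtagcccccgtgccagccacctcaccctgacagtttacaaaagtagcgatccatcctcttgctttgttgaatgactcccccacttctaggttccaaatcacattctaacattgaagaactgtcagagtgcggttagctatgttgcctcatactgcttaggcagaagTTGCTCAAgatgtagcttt

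The matches were spread unevenly over the granule classes. TTGCNNAA stood within the 250 bases before the RefSeq start of 5 of the 10 genes, Ngp, Ltf, Mmp8, Retnlg and Ly6g, and in 9.55% of 27025 promoters of the same length. None of the 4 azurophil genes held it in this window. GAGGAA stood in 7 of the 10 genes, among them all 4 azurophil genes, and in 23.1% of all promoters. Camp held neither. The GAGGAA matches of Elane and Prtn3 lie 85 and 95 bases before the RefSeq start, and those of Ltf and Mmp8 lie on the opposite strand at 157 and 219 bases. GENCODE starts of Elane and Prtn3 lie inside the window, nearer to the matches, so these distances hold for the RefSeq start only. Ngp has 1 TTGCNNAA match 138 bases before the RefSeq start and another at 11 bases, which lies in the first GENCODE exon and is not printed. The matches printed do not overlap each other. TATAAA was found in 2 of the 10, Ctsg and Ly6g, and in 13.0% of all promoters, and the AP-1 form TGANTCA in 0 of the 10 and in 6.87% of all. A match describes letters in the window and says nothing of binding, and the letters were not searched outside it.

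The libraries held 26917288, 30042945, 35277710 and 39438391 expected counts in replicates 1, 2, 3 and 4, where an expected count is the estimated number of sequenced fragments given to a gene. A count of 0 allows up to 3 counts, which is 0.0761 to 0.111 CPM (counts scaled to a common library size) depending on the library. Replicates 1 and 2 were made from 6 read files each and replicates 3 and 4 from 4 each. Ribosomal RNA genes held 3.43% to 12.4% of the counts. All 15 listed macrophage genes exceeded 1 TPM (the deposited relative abundance of transcripts, a level per length) in every library, with a median over the list of 1461 TPM, so the labelled cell type was present by its defining markers. For example, Adgre1, which encodes the macrophage marker F4/80, stood at 547.65, 579.92, 490.85 and 636.96 TPM in replicates 1 to 4. Against this, 7 of the 10 granule genes averaged under 1 TPM, and 3, Ngp, Ltf and Mmp8, exceeded 1 TPM in every library.

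Azurophil granule genes were found at 1 to 61 counts per library. Mpo (chr11:87793581-87804413, plus strand), which encodes the peroxidase that makes hypochlorous acid, had 0.61, 0.08, 1.13 and 0.09 TPM in replicates 1, 2, 3 and 4, from 16, 4, 61 and 2 counts. Replicate 3 was highest and replicate 1 next, with replicates 2 and 4 near the lower limit. Elane (chr10:79886247-79888215, plus strand), which encodes neutrophil elastase, had 0.71, 0.49, 0.90 and 0.05 TPM, from 9, 7, 16 and 1 counts. Prtn3 (chr10:79874476-79883174, plus strand), which encodes proteinase 3, had 1.29, 0.80, 1.43 and 0.40 TPM, from 12, 9, 22 and 6 counts, so that replicates 1 and 3 were close and replicate 4 lowest. Ctsg (chr14:56099881-56102574, minus strand), which encodes cathepsin G, had 0.15, 0.27, 0.65 and 0.10 TPM, from 2, 4, 11 and 2 counts. The 4 means ran from 0.293 ± 0.249 TPM for Ctsg to 0.98 ± 0.472 TPM for Prtn3 (SD, n = 4), and Prtn3 was the highest of the 4 genes in every library by this TPM. By counts, Mpo exceeded Prtn3 in replicates 1 and 3. In the second deposited quantification Mpo exceeded it in replicate 3, at 1.21 against 1.15 TPM.

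Ngp, Ltf and Camp were read as the specific granule genes. Of these, Ngp and Ltf were well above the azurophil genes, and Camp was at the azurophil level. Ngp (chr9:110419747-110423012, plus strand), a cathelicidin-related granule protein described in mouse, had 17.64, 6.44, 66.31 and 3.67 TPM in replicates 1, 2, 3 and 4, from 298, 122, 1572 and 92 counts. The exact 95% Poisson intervals of these counts, which cover counting error only, were 265 to 334, 101 to 146, 1495 to 1652 and 74.2 to 113. Ngp ranked 1709 of 22028 protein-coding genes by TPM in replicate 3, and 4954, 7437 and 8414 in replicates 1, 2 and 4. Ltf (chr9:111019271-111042767, plus strand), which encodes the iron-binding protein lactoferrin, had 3.46, 2.07, 19.42 and 1.15 TPM, from 93, 50, 623 and 69 counts. Replicate 3 was again far above the others, and the lowest library was replicate 4 by TPM and replicate 2 by CPM on normalised library sizes. Camp (chr9:109847379-109849617, minus strand), which encodes the cathelicidin precursor of the antimicrobial peptide CRAMP, had 0.91, 0.51, 1.98 and 0.16 TPM, from 8, 5, 24 and 2 counts. Ngp averaged 23.5 ± 29.2 TPM and Ltf 6.53 ± 8.65 TPM (SD, n = 4), so in both the SD exceeded the mean, while Camp averaged 0.89 ± 0.789 TPM.

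The other 3 genes, Mmp8, Retnlg and Ly6g, did not share one pattern. They were read apart from the azurophil and specific granule genes, and this grouping assigns Mmp8 to no granule class. Mmp8 (chr9:7558456-7568485, plus strand), which encodes neutrophil collagenase, had 25.11, 17.38, 17.82 and 9.75 TPM in replicates 1, 2, 3 and 4, from 951, 740, 958 and 557 counts. By this TPM replicate 1 was highest, replicates 2 and 3 were level and replicate 4 was lowest. The mean of 17.5 ± 6.27 TPM (SD, n = 4) lay within the range of Ngp. In the second deposited quantification Mmp8 had 17.5, 11.7, 16.1 and 8.46 TPM, so there replicate 3 was closer to replicate 1 than to replicate 2. Retnlg (chr16:48872621-48874496, plus strand), a member of the resistin-like family found in neutrophils of mice, had 0.34, 0.15, 1.87 and 0 TPM, from 2, 1, 15 and 0 counts. Ly6g (chr15:75155240-75159126, plus strand), the surface antigen by which mature mouse neutrophils are sorted, was listed at 0 in replicates 1, 2 and 4 and had 2 counts, 0.12 TPM, in replicate 3, which is under the floor of 3 counts. The defining surface marker was thus at or near 0 in all 4 libraries.

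**Figure D1:**
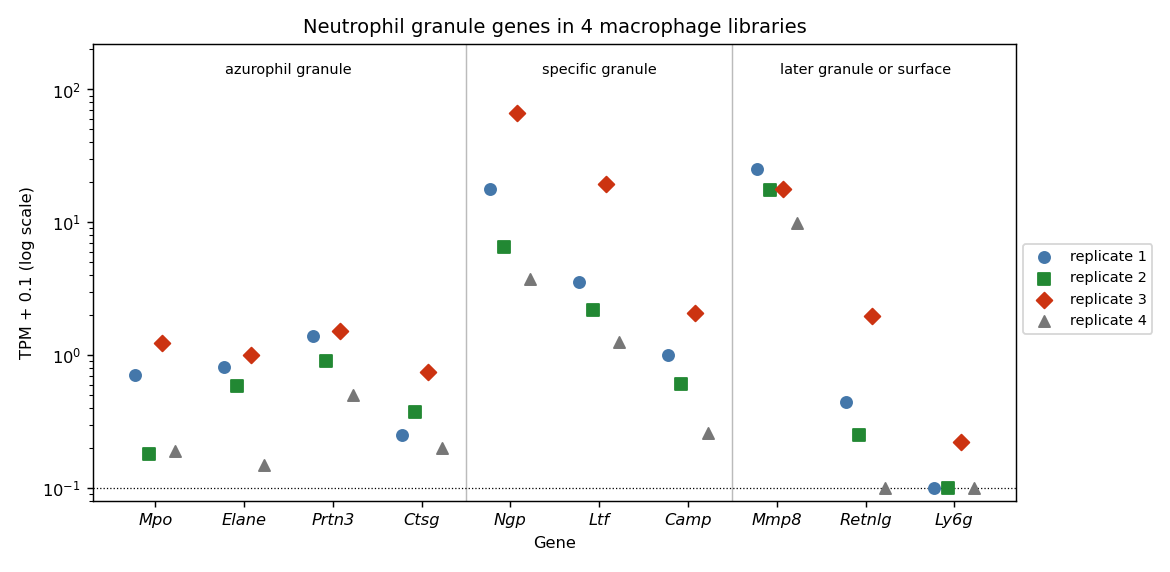
Level of each neutrophil granule gene in each of the 4 libraries, as TPM + 0.1 on a log axis, with 1 point per library. The genes are grouped as azurophil, specific and remaining genes. The heading of later granule or surface covers Mmp8, Retnlg and Ly6g and assigns Mmp8 to no granule class. The dotted line is a TPM of 0. Replicate 3 is the highest point for every gene except Mmp8, which is highest in replicate 1, and Ngp spans 3.67 to 66.31 TPM.

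Set side by side, 9 of the 10 genes were highest in replicate 3, with Mmp8 the exception, and 8 of the 10 were lowest in replicate 4 by CPM. Among the 12626 genes tested, those with at least 10 counts on average, 20.1% were highest in replicate 3 and 17.2% lowest in replicate 4. Only 5 of the 10 genes are among those tested, so the sets differ. The full order of replicates 3, 1, 2 and 4 by CPM was met by 6 of the 10 genes and by 3.37% of the genes tested. Of these 6, Mpo, Prtn3 and Ngp are among the genes tested, and Elane, Camp and Retnlg are not. The deposited credibility interval of the TPM in replicate 3 lay above those of the other 3 libraries for Ngp, Ltf and Retnlg, of which Ngp and Ltf are among the genes tested, where the share was 5.24%. All these values are those by which the genes were selected, and nothing is read from the shares. In bulk RNA, fewer cells of a type and less RNA per cell cannot be told apart.

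A gene was called variable when its 4 scaled counts differed beyond counting noise (chi-square test, Benjamini-Hochberg adjustment at 0.05 over all genes tested) and its highest and lowest values differed at least 2-fold. Of the 10 genes, 5 had enough counts to be tested, Mpo, Prtn3, Ngp, Ltf and Mmp8, and all 5 were called, against 33% of all genes tested. Of these 5, 4 were called and highest in replicate 3, against 6.27%, but Mpo and Prtn3 reached the count minimum only through replicate 3. Mmp8 was called and highest in replicate 1, against 13.6%. Neither count is read as support, since the same values chose the genes. Variation beyond counting noise alone was found for all 5 and for 88.6% of genes tested. The range between the highest and lowest library was 17.9-fold for Ngp, 10.4-fold for Ltf, 3.85-fold for Prtn3 and 2.36-fold for Mmp8, and the median over all genes tested was 1.68-fold. For Mpo the lowest library had 2 counts, and the ratio of 32.0 has an exact 95% counting interval of 8.50 to 270.5. Without replicate 3, 3 genes had enough counts and all 3 were called, Ngp, Ltf and Mmp8, against 26.5% of all genes tested in that setting. Mmp8 was not called when replicate 1 or replicate 4 was left out, and Prtn3 was not called without replicate 4. Without replicate 3 the range of Ngp fell to 2.23 on the log2(TPM + 0.1) scale, against 4.14 with all libraries, and that of Ltf to 1.51, against 3.96.

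The size of the difference between replicate 3 and the other libraries varied within the set. Counts of the other 3 libraries were summed and scaled to normalised library sizes, and exact 95% intervals cover counting error only. Ngp was 8.13 times as high in replicate 3 as in the others (7.35 to 9.00), Ltf 7.78 times (6.65 to 9.14) and Mpo 7.34 times (4.44 to 12.6). These 3 ratios overlap in their intervals although one of the genes is azurophil and the others are specific. Camp was 4.24 times as high (2.13 to 8.69) and Ctsg 3.64 times (1.33 to 10.4). The proteases Elane and Prtn3 had lower ratios, 2.49 (1.18 to 5.25) and 2.16 (1.17 to 3.93), with upper bounds under the lower bounds of Ngp and Ltf. Mmp8 had a ratio of 1.13 (1.05 to 1.22), and Retnlg, with 15 counts against 3, one of 13.2 (3.75 to 71.3). The median ratio over all genes tested was 0.952.

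Libraries made from equal numbers of read files also differed. Between replicates 3 and 4, with 4 read files each, the CPM ratio was 17.9 for Ngp (14.5 to 22.4), 9.48 for Ltf (7.39 to 12.3) and 1.81 for Mmp8 (1.63 to 2.01), with exact 95% counting intervals. Between replicates 1 and 2, with 6 read files each, it was 2.68 for Ngp (2.17 to 3.34), 2.04 for Ltf (1.43 to 2.94) and 1.41 for Mmp8 (1.28 to 1.56). No source calls the number of read files a batch. Replicate 1 had the largest share of ribosomal RNA counts, 12.4%, and replicate 3 had 4.70%.

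The balance of the azurophil genes against Ngp, Ltf and Camp differed between libraries. It depends on the grouping, which leaves Mmp8 out of both classes. Mmp8 had 951, 740 and 557 counts in replicates 1, 2 and 4, against 399, 177 and 163 for Ngp, Ltf and Camp together. The azurophil counts of replicate 1 include 12 of Prtn3, all given to a retained-intron transcript. The 4 azurophil genes summed to 2.76, 1.64, 4.11 and 0.64 TPM in replicates 1, 2, 3 and 4, and the 3 specific granule genes to 22.01, 9.02, 87.71 and 4.98 TPM. Both sums were thus highest in replicate 3 and lowest in replicate 4, and the specific granule sum spread further. Azurophil genes took 8.90%, 11.9%, 4.72% and 6.32% of the counts of both classes, with exact 95% binomial intervals of 6.41 to 12.0%, 7.80 to 17.2%, 3.90 to 5.66% and 3.20 to 11.0%. The interval of replicate 3 lies below those of replicates 1 and 2 and overlaps that of replicate 4. All 10 genes together reached 50.22, 28.19, 111.63 and 15.37 TPM, of which Ngp made up 35.1%, 22.8%, 59.4% and 23.9%. Mmp8 made up 50%, 61.7%, 16.0% and 63.4% of the summed TPM, so a different gene led the set in replicate 3 than in the other 3 libraries. Without Mmp8, the 9 other genes had 16.3, 6.72, 66.5 and 4.41 CPM of all gene counts in replicates 1, 2, 3 and 4.

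**Figure D2:**
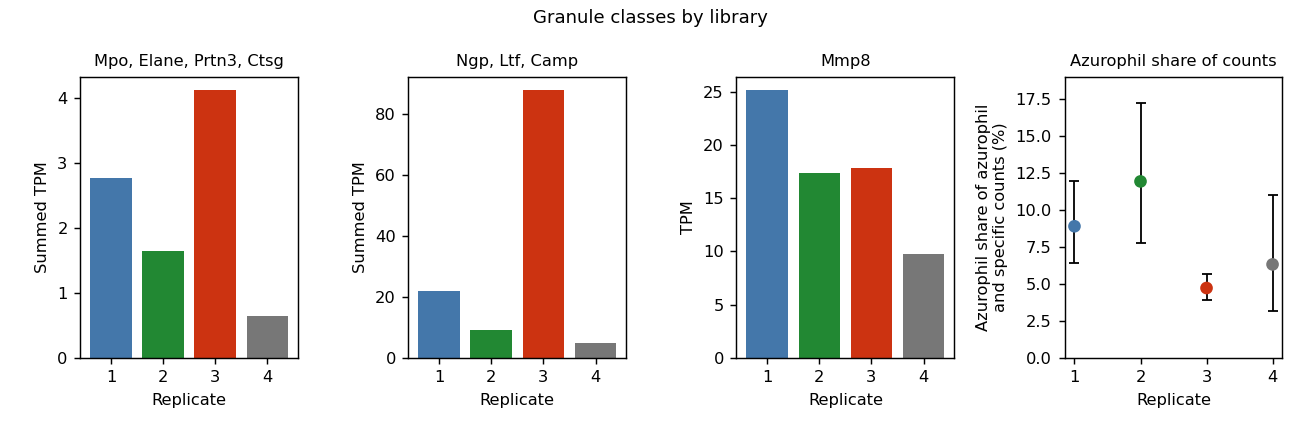
Summed TPM of the azurophil genes, summed TPM of Ngp, Ltf and Camp as the specific granule genes, and TPM of Mmp8 in each library (bars from 0). The last panel is the azurophil share of azurophil and specific granule counts, Mmp8 left out, with exact 95% binomial intervals (points and bars). The specific granule sum is 87.71 TPM in replicate 3 and at most 22.01 TPM in the others, while Mmp8 is highest in replicate 1 at 25.11 TPM.

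Within the specific granule class, Ngp and Ltf moved together but not in a fixed ratio. Ltf held 23.8%, 29.1%, 28.4% and 42.9% of the counts of the pair in replicates 1, 2, 3 and 4. The exact 95% intervals of replicates 1 and 4 were 19.6 to 28.3% and 35.1 to 50.9% and do not overlap. Replicate 4, the library with the fewest Ngp counts, thus had the largest part of Ltf.

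Transcript assignments touch the TPM of Ltf, Prtn3 and Mpo. The main coding transcript Ltf-201 had 83, 41.52, 591.86 and 68.29 counts in replicates 1, 2, 3 and 4. In replicate 3 a further 27.48 counts went to Ltf-211, a nonsense-mediated decay transcript of 373 bases, and gave 9.38 of the 19.42 TPM of the gene, because TPM divides by a short effective length. Another decay transcript, Ltf-207, gave 1.14 of 3.46 TPM in replicate 1 and 0.91 of 2.07 TPM in replicate 2. Ltf-211 had 0 counts in replicates 1, 2 and 4, and in counts of Ltf-201 replicate 3 still exceeded the others. For Prtn3, all 12 counts of replicate 1 and none of the 6 counts of replicate 4 went to 1 retained-intron transcript. The coding transcript Prtn3-201 received 0, 1.73, 9.46 and 2.44 counts, and the retained-intron transcript 6.12 of the 22 counts of replicate 3, so the similar Prtn3 levels of replicates 1 and 3 rest only in part on the same transcript. For Mpo, 1 count on the short transcript Mpo-204 gave 0.07 of 0.09 TPM in replicate 4, and 1.54 counts on Mpo-205 gave 0.23 of 0.61 TPM in replicate 1. Prtn3 also overlaps Plppr3 and Mpo overlaps Gm11505, both on the opposite strand. The strand setting of the counting is not given in the sources used here, so reads of overlapping genes cannot be told apart, although Gm11505 was listed at 0 counts in all 4 libraries. For Elane, Ngp, Camp, Mmp8 and Retnlg the annotation has 1 transcript each.

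Mmp8 was set beside the other metalloproteinase genes of its cluster on chromosome 9. Mmp13, a collagenase also made outside neutrophils, had 112.95, 72.05, 58.59 and 36.66 TPM in replicates 1, 2, 3 and 4, and Mmp12, the macrophage elastase, had 365.90, 56.78, 221.60 and 74.46 TPM. Mmp10, a stromelysin, had 4.45, 0.56, 1.38 and 0.34 TPM. Like Mmp8, these 3 genes were highest in replicate 1. Mmp27, whose gene lies 2.91 kb from Mmp8, had 40.28, 68.15, 80.42 and 63.76 TPM and was lowest in replicate 1. Of the 10 cluster genes, Mmp8 included, 5 were tested and 5 called, 4 of them highest in replicate 1 and 1 in replicate 3. The shares over all genes tested were 33% called, 13.6% called and highest in replicate 1, and 6.27% called and highest in replicate 3.

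**Figure D3:**
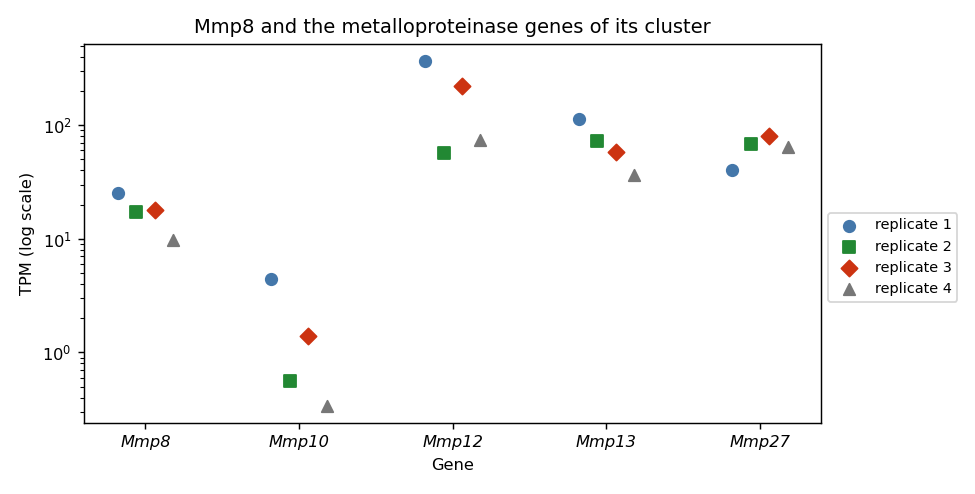
TPM (log axis) of Mmp8 and of the expressed metalloproteinase genes of its cluster, 1 point per library. Mmp8, Mmp10, Mmp12 and Mmp13 are highest in replicate 1, whereas Mmp27 is lowest there at 40.28 TPM and highest in replicate 3 at 80.42 TPM.

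The resistin-like and Ly6 families were read as relatives of Retnlg and Ly6g. Retn, Retnla and Retnlb, the other resistin-like genes, were listed at 0 in all 4 libraries, so Retnlg was the 1 gene of this family with counts. Near Ly6g, Ly6c2, a surface antigen of inflammatory monocytes, had 8.52, 6.97, 16.05 and 8.61 TPM, highest in replicate 3. The other called genes of the Ly6 list were highest in replicate 2 and lowest in replicate 3. Ly6a, also known as Sca-1, had 17.38, 49.83, 13.62 and 34.02 TPM in replicates 1, 2, 3 and 4, and Ly6e, a widely expressed member of the family, had 582.19, 1358.42, 365.69 and 1036.58 TPM. Within 100 kb of the 10 genes lay 95 other genes, of which 31 were tested and 15 called, 4 of the 15 highest in replicate 3. Among all genes tested, 33% were called and 6.27% were called and highest in replicate 3. Of the 4 neighbours called and highest in replicate 3, 1 lay near Mpo, 1 near Mmp8 and 2 near Ly6g.

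A list of 25 other neutrophil genes, covering granule, cytosolic and receptor genes, was read in the same way, with its members chosen from general knowledge but with these data known. Of the 18 tested, 16 were called, 13 of them highest in replicate 3, 2 in replicate 4 and 1 in replicate 2. The shares over all genes tested were 33% called and 6.27% called and highest in replicate 3. Since 6 of the 18 reached the count minimum only through replicate 3, the tally is partly set by the filter. Of the 12 that reached it over replicates 1, 2 and 4 alone, 10 were called and 7 of them were highest in replicate 3, against 5.59% of all genes that did so, and their median ratio of replicate 3 to the other libraries was 1.79. Without that condition, the median ratio of replicate 3 to the other libraries was 2.98 over 22 genes with counts in both, and 17 of the 22 intervals lay above 1. Without replicate 3, 6 of the listed genes were called. S100a9, a subunit of the cytosolic protein calprotectin, had 100.66, 61.62, 456.65 and 41.92 TPM in replicates 1, 2, 3 and 4, and its partner S100a8 had 73.95, 36.82, 181.19 and 21.96 TPM. Both followed the order of Ngp, and the count ratio of Ngp to S100a9 was 0.648, 0.390, 0.564 and 0.347. Lcn2, the siderophore-binding protein of specific granules, had 9.64, 7.23, 23.78 and 4.28 TPM, and Chil3, a chitinase-like protein that macrophages also make, had 15.03, 19.18, 29.78 and 10.27 TPM. Olfm4, a protein of specific granules, had 0.18, 0.14, 0.84 and 0.07 TPM, and Pglyrp1, a peptidoglycan-binding protein, had 1.43, 0.28, 2.28 and 0.37 TPM.

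Other genes of that list had other orders. Padi4 and Slpi, named after their values were seen, were the called genes highest in replicate 4. Padi4 had 4.85, 5.43, 2.80 and 6.08 TPM in replicates 1, 2, 3 and 4, and its ratio of replicate 3 to the others was 0.477 (0.392 to 0.578). Slpi had 0.46, 0.74, 0.73 and 1.72 TPM, with a ratio of 0.747 (0.345 to 1.49). Csf3r, the receptor for granulocyte colony-stimulating factor, had 12.61, 44.88, 50.38 and 39.44 TPM and was low in replicate 1 alone, and the decoy receptor gene Il1r2 had 0.44, 3.51, 2.88 and 3.04 TPM, also low there. Ctsc, the dipeptidyl peptidase that activates the serine proteases of azurophil granules, had 461.18, 820.53, 468.54 and 431.95 TPM, and Srgn, the proteoglycan that holds granule proteins, had 629.25, 909.34, 862.72 and 642.09 TPM. Neither was called variable. Bpi, named after its values were seen, was the listed gene at 0 in every library.

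Transcription factors that act in granulocytes were read from a list of their own. Of 11 listed, 9 were tested and 5 called, with 0 of the 5 highest in replicate 3. Among all genes tested, 33% were called and 6.27% were called and highest in replicate 3. The median ratio of replicate 3 to the others was 0.748 over the list, with 4 of 11 intervals above 1. Spi1, which encodes PU.1, had 246.89, 298.38, 278.76 and 299.46 TPM in replicates 1, 2, 3 and 4, and Cebpa had 36.86, 40.51, 46.64 and 38.20 TPM. Cebpb was lowest in replicate 3, at 29.23 TPM against 76.84, 120.76 and 74.88 TPM in replicates 1, 2 and 4, and so was Cebpd, with 3.24, 4.65, 0.81 and 2.07 TPM in replicates 1, 2, 3 and 4. Some factors without a call were named after their values were seen. Cebpe, the C/EBP factor of the specific granule stage, had 0.29, 0.21, 0.54 and 0.16 TPM, from 5, 4, 13 and 4 counts, and its ratio of 2.65 had an interval above 1 (1.13 to 6.20). Myb, a factor of immature blood cells, had the same ratio, with an interval of 1.09 to 6.44 from 12 counts in replicate 3. Gfi1, a repressor needed for neutrophil development, had 0.20, 0.28, 0.14 and 0.17 TPM.

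Markers of other marrow cells were counted beside the granule genes. Of 14 genes of eosinophils, basophils and mast cells, 10 were highest in replicate 3, but 4 of these 10, Epx, Prg3, Ear1 and Fcer1a, rest on 1 or 2 counts in all. The list had 4 genes tested and 4 called, of which 2 were highest in replicate 3, both past the count minimum only through it, 1 in replicate 1 and 1 in replicate 4. Ratios were taken for the 6 genes with counts on both sides and at least 10 counts over all libraries. Of these 6 intervals, 5 lay above 1, with a median ratio of 6.47, and the genes that reached the minimum over replicates 1, 2 and 4 had 1.24. Their summed level was 41.36, 7.99, 29.71 and 9.72 TPM in replicates 1, 2, 3 and 4, most of it from Ccr3, a chemokine receptor gene with 36.77, 7.04, 18.83 and 8.35 TPM. Among the tested genes of this list, Prss34, a basophil and mast cell protease, had 0.18, 0.11, 2.20 and 0.28 TPM, and Ear2, an eosinophil ribonuclease, had 2.46, 0.33, 4.57 and 0.34 TPM. Of 10 monocyte genes, all 10 were called, 4 highest in replicate 3, with a median ratio of 1.05 and summed levels of 79.03, 445.7, 214.34 and 425.75 TPM. Of 8 progenitor genes, 5 were tested and 4 called, 1 highest in replicate 3, and 1 gene was at 0 in all libraries. Of 15 lymphoid, erythroid and stromal genes, 2 were at 0 in all libraries, and the sums were 1.76, 1.25, 2.16 and 0.85 TPM. Of the 15 macrophage genes, 4 were called and 1 of them was highest in replicate 3, with a median ratio of 0.878. For each of these lists, the shares over all genes tested were 33% called and 6.27% called and highest in replicate 3. The part of other cell types in the granule gene values was not tested.

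**Figure D4:**
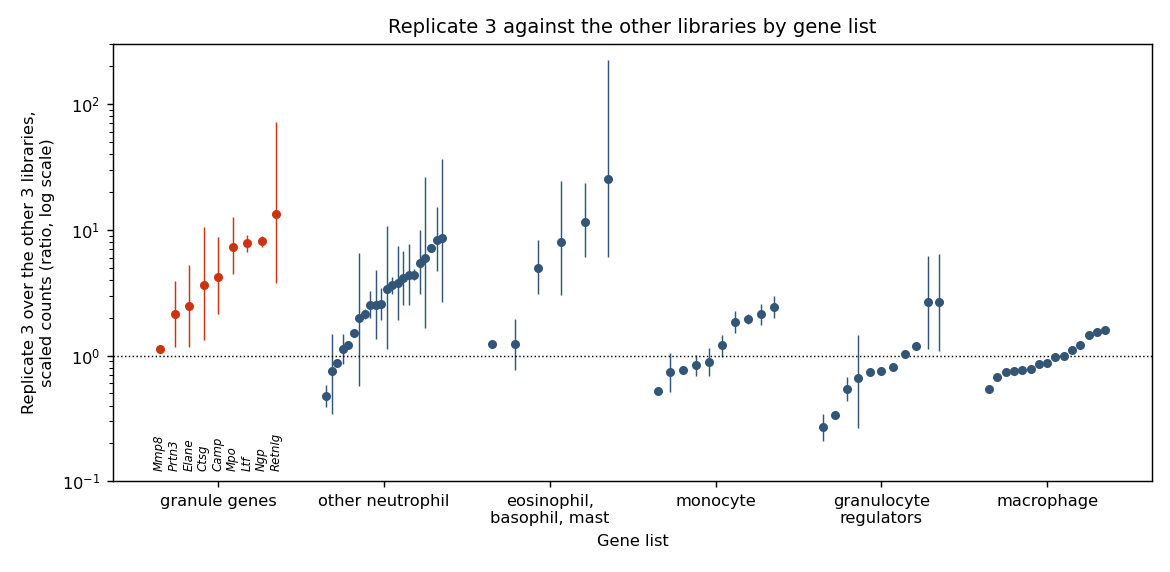
Ratio of replicate 3 to the other 3 libraries together, in scaled counts on a log axis, for the granule genes except Ly6g and for genes of 5 other lists. Genes shown have counts on both sides and at least 10 counts over all libraries. Vertical lines are exact 95% intervals for counting error. The dotted line is a ratio of 1. The granule genes run from 1.13 for Mmp8 to 13.2 for Retnlg, and the medians of the other lists are 2.98 for other neutrophil genes, 6.47 for eosinophil, basophil and mast cell genes, 1.05 for monocyte genes, 0.748 for granulocyte regulators and 0.878 for macrophage genes.

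Genes were also ranked by closeness to the mean pattern of the 5 tested granule genes over the 4 libraries. These 5 were selected on the same values, Mpo and Prtn3 reached the count minimum only through replicate 3, and Mmp8 was highest in replicate 1. The ranking therefore describes closeness to that mean and cannot show which genes resemble granule genes. Likeness was the root mean square distance between deviations from the gene's own mean on the log2(CPM + 1) scale and the mean deviation of the 5 tested granule genes, over 4 libraries and 11349 protein-coding genes, whose median distance was 0.739. The mean deviation was 0.152, -0.461, 1.06 and -0.750 in replicates 1, 2, 3 and 4. Ngp alone had 0.278, -0.955, 2.19 and -1.51, so closeness to this flatter mean is not closeness to Ngp. The 10 genes closest to the mean lay within 0.212. They were Hbegf, Lcn2, Ccnb2, Chil1, Gm4631, Fabp4, Rasgrp2, Cdc20, Zfp948 and Zfp934. Hbegf, a growth factor of the epidermal growth factor family, was closest, at a distance of 0.115 with 15.74, 10.92, 30.77 and 6.68 TPM in replicates 1, 2, 3 and 4, and Lcn2 followed at 0.123. Fabp4, a fatty acid binding protein of macrophages and fat cells, was the most abundant of the 10, with 435.03, 252.91, 970.81 and 203.42 TPM. With 4 libraries such a likeness rests on few points, and 4 of the 10 genes were also among the closest 10 when a mean count of at least 50 was required of the candidates and of the granule genes, which left 3 of the 5 as the base.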

How the data were processed

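Polyadenylated RNA was sequenced in 4 libraries of 1 group, and each had 3 deposited tables on mm10 with GENCODE M21, per the deposited text lists of files. No aligner, quantifier, version or strand setting is named by the sources used here. The gene table holds deposited expected counts and TPM, with the column names RSEM writes. Its credibility interval of each TPM, a deposited signal, has no stated level. The first transcript table holds the same and the share of each transcript as a percent, by the authors. The second, made straight from reads, holds deposited expected counts and TPM that were summed to genes.

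The members and lists were chosen with earlier results of these data known. Expected counts were rounded and scaled with TMM sizes (edgeR 4.0.16, R 4.3.3). Each of 12626 genes with on average at least 10 counts was tested against counting noise (chi-square, 3 degrees of freedom, SciPy 1.17.1) with Benjamini-Hochberg adjustment, after the procedure was tested on simulated data. Counts are not independent molecules, so tests, intervals and the floor of 3 counts cover counting error only, with a confidence level of 95%. No contrast between conditions was possible. All 10 members were named, and so were the 10 genes closest to the mean pattern of the 5 tested members. Others were drawn from listed genes with a mean of at least 10 TPM and the 4 tested genes of each list with the largest log2 range. Genes neighbouring or related to a member were drawn on too. Not every gene that met this was named: Irf8, Runx1, Cbfb, Klf4, most macrophage and monocyte genes and the proliferation genes were left out. A few genes outside these criteria were also named. Alternatives were DESeq2 1.42.0 size factors, no factor, other count minimums, other pseudocounts, posterior mean TPM, the second quantification and leaving out each library. The expected counts deposited for all members were whole numbers in every library.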

Additional observations from a re-analysis of the deposited data

Results flagged for a closer look

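In 4 libraries, a value was singled out when its gap to the nearest other value over the whole range exceeded Dixon's 95% critical value, which chance does in about 1 in 20 groups. Of 27 genes checked by TPM, 6 met it, and 5 of the 6 were high in replicate 3. The members were selected on these same values, and some listed genes for their wide range between libraries. That rate does not hold for genes chosen this way, and the 6 are not read as an excess. Ltf stood at 19.42 TPM in replicate 3, with 3.46 TPM the next highest. Ly6g stood at 0.12 TPM in replicate 3 and at 0 elsewhere, which rests on 2 counts. Olfm4 stood at 0.84 TPM in replicate 3, S100a9 at 456.65 TPM and the basophil and mast cell protease gene Prss34 at 2.20 TPM, each in that same library. Ctsc was set apart by replicate 2, at 820.53 TPM, with the other 3 libraries between 431.95 and 468.54 TPM. Ngp did not meet the criterion, since replicate 1 lay between replicate 3 and the others.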

How the results depend on the processing

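Of the 10 granule genes, 5 were called variable. DESeq2 size factors and no normalization factor gave 5 as well. A mean count of at least 20 gave 4 of 4 tested (31% of all genes tested), the second quantification 6 of 6 (36.1%) and no filter on low counts 9 of 10 (24.4%), where Ly6g was not called. A count minimum taken over replicates 1, 2 and 4, added after the data were seen, gave 3 of 3. Leaving out replicate 1 gave 5 of 6 tested (16.1%), replicate 2 gave 6 of 6 (27.7%), replicate 3 gave 3 of 3 (26.5%) and replicate 4 gave 4 of 7 (29.2%). The other neutrophil genes gave 16 calls, 9 at a minimum mean count of 20, 10 with the minimum over replicates 1, 2 and 4, and 6 to 16 with 1 library left out, the fewest without replicate 3. The fewer genes that reached the minimum without replicate 3 are part of these counts by construction. Over all genes, 4167 calls became 2048 to 3683 with 1 library left out, the lowest without replicate 1. The summed level of the 10 genes averaged 51.4 TPM and ran from 31.3 TPM without replicate 3 to 63.3 TPM without replicate 4. It was 33.8 TPM without Mmp8, an alternative added after the data were seen. Replicate 3 had the highest sum by TPM, posterior mean TPM and the second quantification, and without Mmp8. Posterior mean TPM raised low genes: Mpo averaged 1.04 TPM, Prtn3 1.90 TPM and Ltf 11.25 TPM, against 6.53 TPM in the main estimate, with the log2 range of Ltf at 2.04 against 3.96, and Ly6g stood at 0.61 TPM in both replicates 1 and 3. Of 90 log2 ranges recomputed for members, 20 moved by more than the spread. No paired analysis was possible because there is 1 group. Depth limits Elane, Ctsg, Camp, Retnlg and Ly6g, whose mean counts were under 10.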

Other observations

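Of 10 proliferation genes, which the comparisons above do not use, 9 were called variable, 8 of them highest in replicate 1. Among all genes tested, 33% were called and 13.6% were called and highest in replicate 1. The summed level of the proliferation genes was 1074, 271, 542 and 344 TPM in replicates 1, 2, 3 and 4. Of 13 genes of the granzyme and mast cell protease cluster that holds Ctsg, 9 were at 0 in all libraries. The pseudogene I830127L07Rik, which lies 20.1 kb from Ly6g and is named after its values were seen, had 0.72, 0.65, 3.59 and 0.42 TPM in replicates 1, 2, 3 and 4, from 6, 6, 41 and 5 counts, so it was higher than Ly6g in every library and was highest in replicate 3.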
